A study of Mus musculus with 28 samples.

Results

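Untreated small-intestinal organoids were described from 4 bulk RNA-seq samples, the 4 columns of the BMP table that the labels call untreated controls, out of 20 samples in that table and 28 in the series. The organoids came from wild-type C57BL/6 mice, and the labels call the tissue small intestinal epithelium. Age, sex and the stretch of intestine are not in the labels. Crypts had been seeded in ENR medium, which supplies EGF, the BMP antagonist Noggin and the Wnt agonist R-spondin, and were washed free of debris and put into fresh gel after 48 h. The same genotype, medium and handling applied to the treated organoids used beside them, which received 1 recombinant ligand at 500 ng/ml for 24 h (the design text gives 24 with no unit): BMP2 (4 samples), BMP3 (3 samples), BMP4 (3 samples), BMP5 (3 samples) or BMP7 (3 samples). A further 3 untreated organoid samples, the controls of the TGFb experiment, were deposited in another table and scaled separately. The untreated samples carry the replicate numerals II, III, IV and VI in their titles, and the treated samples carry numerals from the same set. The labels do not say what a numeral stands for, nor whether samples came from separate mice or cultures, so every p-value below measures only the spread between these samples, which may be technical. Libraries were sequenced in 2 runs, and the labels do not assign samples to them.

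A crypt organoid is an epithelial culture that grows from the stem and Paneth cells of intestinal crypts without stroma. Wnt and Notch signals keep columnar stem cells dividing, their daughters divide a few more times, and these then become absorptive enterocytes or secretory cells. The secretory cells are Paneth cells, which release antimicrobial peptides and supply Wnt ligand to stem cells, goblet cells, which make mucus, enteroendocrine cells, which make gut hormones, and tuft cells, which sense chemicals in the lumen. BMP signalling opposes the stem state in the intestine, and ENR medium blocks it.

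The deposited values, called normalized counts here, are gene counts divided by a constant for each sample. Reads recovered from them numbered 21705913 to 24784834 per untreated sample, within the 21358620 to 24784834 of all 20 samples. Of 29413 genes in the table, 14484 had an untreated mean of at least 10 normalized counts and 10627 a mean of at least 100. No 2 of the 4 samples agreed within counting noise, with a chi-square per degree of freedom of 5.03 to 10.4 between pairs.

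The epithelial label was checked against markers. All 12 pan-epithelial genes were detected, and together they held 0.824% to 0.895% of reads, highest in VI. Krt8, a simple-epithelium keratin, averaged 34100 ± 3191 normalized counts (SD, n = 4), Lgals4, an enterocyte galectin, 26475 ± 3064, and Cdh1, the epithelial cadherin, 22875 ± 1021. Lists of cells outside the epithelium held at most 0.00422% of reads each, though Pecam1 and Vim were well above 0. The mesenchymal list held between 0.000728% and 0.00120% of reads, of which Vim, an intermediate filament gene, made up the most, at 119 to 180 normalized counts, while Acta2 did not pass 21.3 and Pdgfrb did not pass 14.2. Immune genes were led by Itgam at 36.4 to 46.3 and Cd68 at 14.2 to 32.9, and Ptprc, which encodes the pan-leukocyte antigen CD45, lay between 3.32 and 10.7. Of the endothelial genes, Cdh5 and Kdr had 0 reads in all 4 samples and Lyve1 and Vwf did not pass 87.0 and 22.2, whereas Pecam1 stood at 569 to 774. The neural and glial list held 0.000113% to 0.000129% of reads, with Elavl4 and S100b at 4.96 or below. Of the erythroid genes, Hbb-bs had 1 read in VI and 0 in the other 3 samples, and Alas2 had 0 in all 4.

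Much of the sequence in untreated organoids came from a small number of genes. The first 10 genes by reads held 8.93% ± 0.618 of all reads (SD, n = 4), the first 100 held 22.5% ± 0.610 and the first 1000 held 52.7% ± 0.648. Of the first 20, 10 were encoded in mitochondrial DNA and 8 were nuclear protein-coding genes. The remaining members were Rn18s, the 18S ribosomal RNA, and the non-coding gene Gm43305.

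Mitochondrially encoded genes held 6.31%, 5.19%, 5.21% and 7.61% of reads in II, III, IV and VI. mt-Co1, a subunit of cytochrome c oxidase, led them with 304000, 260000, 263000 and 430000 normalized counts. VI was the highest sample, and III and IV were the lowest. The others among the first 20 were mt-Co2 and mt-Co3 of the same oxidase, mt-Nd1, mt-Nd2, mt-Nd4 and mt-Nd5 of complex I, mt-Atp6 of ATP synthase, mt-Cytb of complex III and the large ribosomal RNA mt-Rnr2, with means from 50575 to 116250. Rn18s went the other way among samples: it took 1.55% and 1.60% of reads in II and VI but 3.05% and 3.42% in III and IV. The libraries were made from messenger RNA with a KAPA kit, and the part of these ribosomal and mitochondrial differences in the shares of reads below was not tested.

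The 8 nuclear coding genes among the first 20 were tight between samples. Eef1a1, the elongation factor that brings aminoacyl-tRNA to the ribosome, had 213000, 183000, 166000 and 195000 normalized counts, and Eef2, the translocation factor, averaged 59175 ± 5590. Olfm4, a secreted glycoprotein of crypt stem cells, had 85700, 84000, 110000 and 91100. Cps1, the mitochondrial enzyme that starts the urea cycle, averaged 61800 ± 4310, Scd2, a fatty acid desaturase, 61575 ± 7180, and Dmbt1, a scavenger-receptor protein of mucosal surfaces, 55525 ± 3019. The chaperones Hspa8 and Hsp90ab1 averaged 53050 ± 4951 and 52400 ± 3421. All 4 samples of each of these genes lay within a factor of 1.5 of each other. Eef1a1 and Olfm4 were the first nuclear coding genes by reads.

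Read counts favour long transcripts, so levels were also put per base of transcript and scaled to 1000000 over all genes with a length, which held 97.5% of untreated reads. On this per-length scale the order of nuclear coding genes was Eef1a1 at 9517, Defa24 at 5817, Ptma, a chromatin-associated acidic protein, at 5647, Defa17 at 5229, Olfm4 at 3801 and Lyz1 at 3536. Defa24, Defa17 and Lyz1 are products of Paneth cells, which release alpha-defensins and lysozyme. In the 3 untreated samples of the TGFb table, whose values are TPM, Defa24 averaged 9630 ± 1086 (SD, n = 3), Eef1a1 9268 ± 492, Olfm4 2386 ± 220 and Lyz1 2168 ± 281. Across 14455 genes, which are not independent replicates, the per-length level and the TPM had a Spearman correlation of 0.912, given as a description. The first places of the TPM table also held genes of 204 bases or fewer, namely mt-Atp8, Mir6236, Gm26377, Mir703 and Gm12338, for which a TPM rests on very few positions, and copies of mitochondrial genes in nuclear DNA such as Gm28661, Gm10925, Gm10222, Gm28437 and Gm28438. Gm28661 had 13864 TPM there and 700.0 normalized counts here, and since near-identical copies can share reads, the level of any single copy is uncertain. The other genes among the first 20 there were Rn18s, mt-Co1, mt-Nd1, mt-Cytb, mt-Nd4, mt-Nd2, mt-Atp6 and Defa3.

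**Figure D1:**
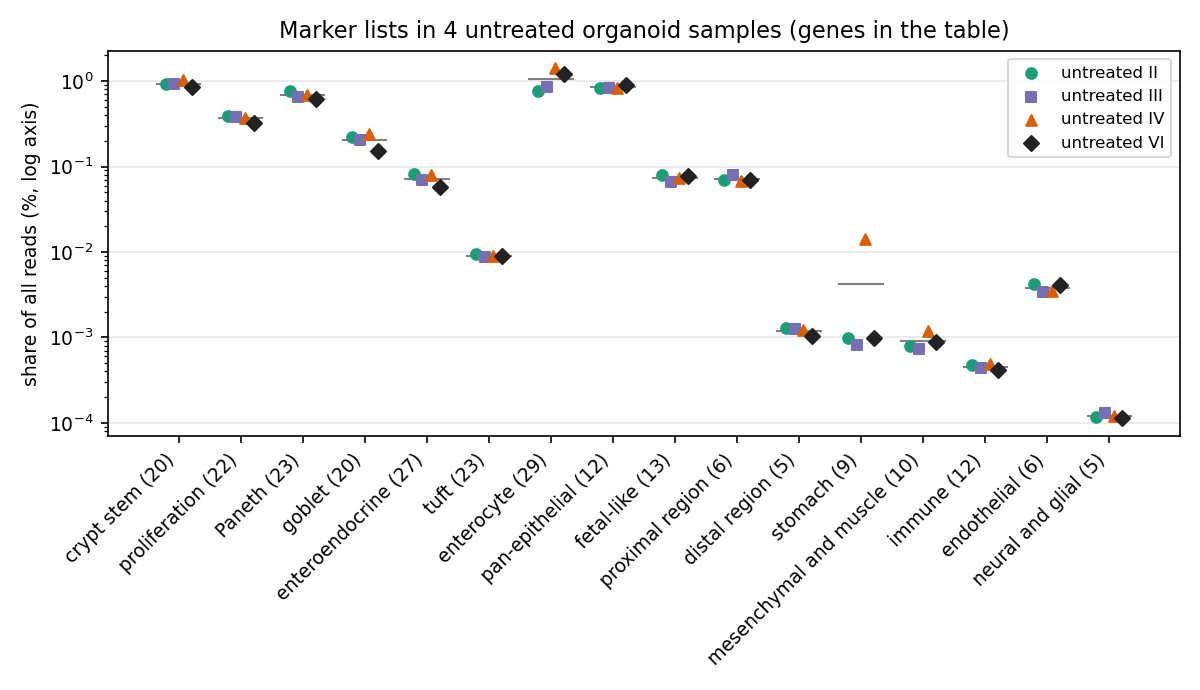
Share of all reads (percent, log axis) held by each marker list in the 4 untreated organoid samples, with the number of list genes in the table in brackets; each symbol is 1 sample and the grey line is the mean of the 4. Of the lineage lists, enterocyte, crypt stem and Paneth hold the most reads and tuft the least, at 0.00906%, and the stomach list stands at 0.0142% in IV against 0.00082% to 0.00099% in the other 3 samples.

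Among the lineage lists, enterocyte, crypt stem and Paneth transcripts held the largest shares of reads, followed by proliferation, goblet, enteroendocrine and tuft transcripts, as the plot of list shares shows. Mean shares were 1.06% ± 0.310 for 29 enterocyte genes (SD, n = 4), 0.931% ± 0.0815 for 20 crypt stem genes, 0.682% ± 0.0613 for 23 Paneth genes and 0.366% ± 0.0292 for 22 proliferation genes. Goblet genes (20) held 0.205% ± 0.0384, enteroendocrine genes (27) 0.0724% ± 0.0109 and tuft genes (23) 0.00906% ± 0.000323. A share depends on which genes a list holds and on their length, so the order of lists is not an order of cell numbers, and in bulk samples fewer cells of a type and less RNA per cell cannot be told apart. Per length, the Paneth list moved to the front at 1.91% ± 0.187, ahead of enterocyte at 0.880% ± 0.270 and crypt stem at 0.598% ± 0.0794. The TPM of the separate untreated samples gave 2.81% ± 0.327 for the Paneth list (SD, n = 3), 0.957% ± 0.156 for enterocyte, 0.384% ± 0.0258 for crypt stem, 0.199% ± 0.00987 for proliferation, 0.261% ± 0.0280 for goblet, 0.0626% ± 0.00145 for enteroendocrine and 0.00477% ± 0.000461 for tuft genes. Paneth genes are short, with a median transcript length of 491.5 bases against 3269 for crypt stem and 3121 for enterocyte genes.

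**Figure D2:**
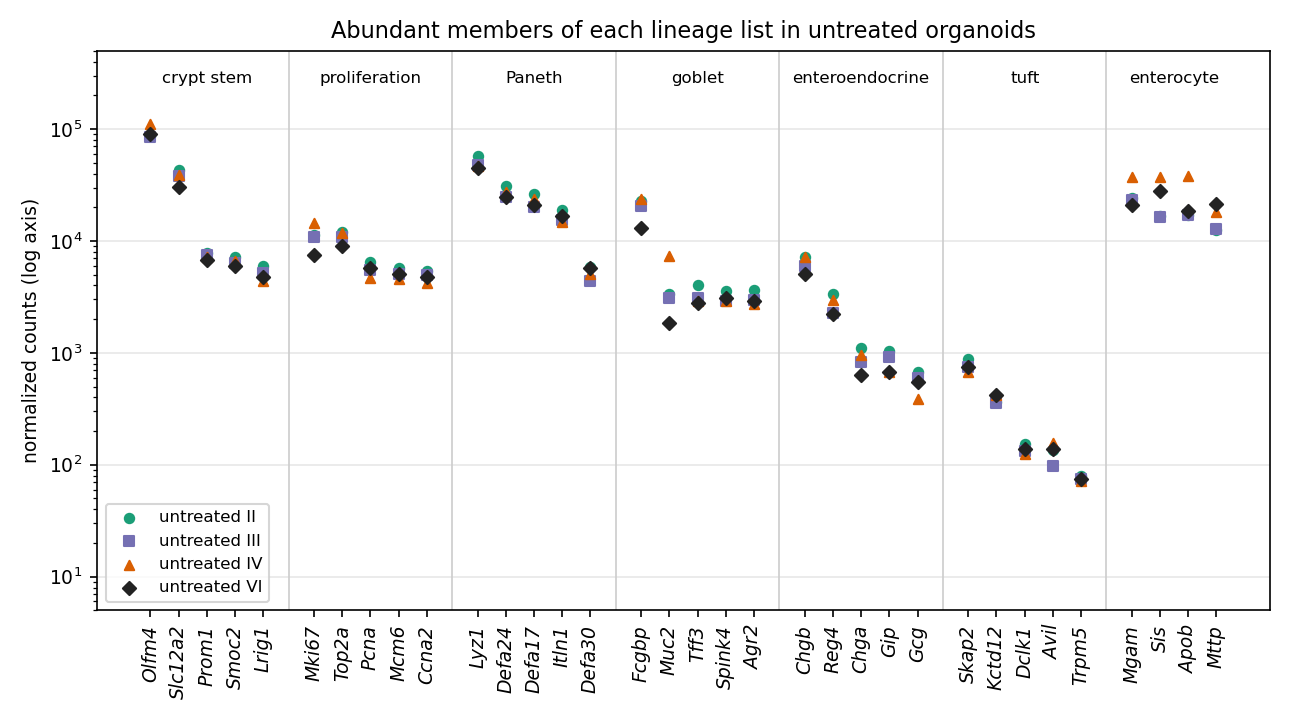
Normalized counts (log axis) of abundant members of each lineage list in the 4 untreated samples (5 a list, 4 for enterocytes); each symbol is 1 sample. Crypt stem and Paneth members lie close together across samples, while the enterocyte genes Sis and Apob and the goblet gene Muc2 spread more widely.

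Crypt stem transcripts were abundant in every sample. The list held 0.915%, 0.917%, 1.04% and 0.849% of reads in II, III, IV and VI, and Olfm4 alone made up 50.2% of it. Slc12a2, a sodium-potassium-chloride cotransporter of the crypt base, had 43000, 38300, 38800 and 30400 normalized counts. Prom1, a membrane glycoprotein of crypt cells, had 7750, 7510, 7240 and 6710. Smoc2, a matricellular protein of Lgr5+ stem cells, averaged 6512 ± 485 (SD, n = 4) and Lrig1, an inhibitor of EGF receptor signalling, 5090 ± 677. Lgr5 itself, the R-spondin receptor that defines columnar stem cells, had 5210, 5050, 3150 and 3950, lowest in IV. All 20 members passed a mean of 100, and the range of the list share was 1.23-fold. Their median coefficient of variation (CV, the SD over the mean of the 4 samples) was 11.5%, against 9.34% for all genes with a mean of at least 100.

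Proliferation transcripts held 0.388%, 0.379%, 0.375% and 0.323% of reads, and all 22 members passed a mean of 100. Mki67, a coat protein of mitotic chromosomes, had 11200, 10900, 14500 and 7480 normalized counts, and Top2a, the replication-linked topoisomerase, had 12000, 10900, 11700 and 9080. Pcna, the sliding clamp of DNA polymerase, averaged 5572 ± 724, Mcm6, a helicase subunit, 5092 ± 515, and the cyclin gene Ccna2 4810 ± 507. IV was the lowest sample for 17 of the 22 members, against 35.95% of all 14484 genes with a mean of at least 10, but the highest for Mki67 and for Cenpf (2680 against 1530 to 2100 elsewhere), whose transcripts at 10061 and 11130 bases are the longest of the list. VI was the lowest sample for both of those.

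Paneth transcripts held 0.767%, 0.655%, 0.681% and 0.625% of reads, highest in II, and all 23 members passed a mean of 100. Lyz1, lysozyme, had 57600, 47800, 47000 and 45000 normalized counts. The alpha-defensin Defa24 had 31100, 24600, 27200 and 24800, Defa17 had 26500, 20200, 23900 and 21100, and Defa30 averaged 5232 ± 651. Itln1, a lectin that binds microbial sugars, had 18700, 15400, 14800 and 16600. II was the highest sample for 15 of the 23 members, against 34.6% of all 14484 genes, and the median CV over the list was 13.8%. Alpha-defensin genes are near-identical copies, so the split of reads between them is uncertain. Defa32 was listed at 0 in II and at 265, 236 and 299 in III, IV and VI, and Defa3 had a mean of 907.5 normalized counts but 6999 TPM in the other table, against 1756 TPM for Defa17. Summed, the 12 alpha-defensin genes of the list held 0.337%, 0.278%, 0.315% and 0.275% of reads, highest in II and lowest in VI. Wnt3, the Wnt ligand that Paneth cells supply, was at 190 to 230 normalized counts in the 4 samples.

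Goblet transcripts held 0.224%, 0.204%, 0.241% and 0.152% of reads, and the summed share was lowest in VI. By member, VI was the lowest sample for 5 of the 20, III for 8 and IV for 7. Of all 14484 genes, 19.2%, 20.2% and 35.95% were lowest in these samples. II was the highest sample for 13 members, against 34.6% of all genes. Fcgbp, a mucus-associated protein, made up 49.1% of the list with 22800, 20400, 23800 and 13000 normalized counts. Muc2, the gel-forming mucin of intestinal mucus, had 3360, 3110, 7270 and 1860, the widest spread of the list with a CV of 60.0%. Tff3, a trefoil peptide, averaged 3200 ± 572, Spink4, a secreted protease inhibitor, 3115 ± 334, and Agr2, a disulfide isomerase needed for mucin folding, 3075 ± 397. Tff3, Spink4 and Agr2 each had their highest value in II and lay between 2740 and 3070 in IV and VI. The regulators Atoh1 and Spdef were detected at 273 ± 54.1 and 212 ± 6.55.

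Enteroendocrine transcripts held 0.0821%, 0.0701%, 0.0792% and 0.0580% of reads, lowest in VI. The granule proteins Chgb and Chga had 7250, 5920, 7180 and 5020, and 1100, 820, 947 and 635 normalized counts. Reg4, a secreted lectin of endocrine cells, averaged 2708 ± 539. Among hormones, Gip, the incretin of K cells, averaged 825 ± 181, Gcg, the precursor of GLP-1, 555 ± 122, Cck 453 ± 44.7, Ghrl 218 ± 65.0 and Sst 212 ± 53.5. Tph1, the enzyme of serotonin synthesis, averaged 301 ± 51.6 and Tac1, the substance P precursor, 394 ± 68.8. Nts was between 4.44 and 8.30 and Pyy, the peptide YY gene, had at most 3 reads in any sample. The progenitor factor Neurog3 was at 110 to 193.

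Tuft transcripts were scarce, and their summed share was the most even of the lineage lists, at 0.00953%, 0.00884%, 0.00887% and 0.00900% of reads. Single members were less even, with a median CV of 17.1% over the 14 of 23 members with a mean of at least 10. Skap2, an adaptor protein also found in other cells, had 884, 742, 680 and 748 normalized counts and made up 42.3% of the list. Kctd12, a receptor-associated protein, had 362, 354, 421 and 420. The more specific markers were lower: Dclk1, a kinase of tuft cells, had 154, 132, 126 and 139, Avil, the actin-binding protein advillin, had 136, 97.1, 156 and 137, and Trpm5, the taste-pathway channel, had 79.9, 74.7, 71.9 and 74.3. Pou2f3, the factor that specifies tuft cells, was at 50.6 to 60.4. Il25, the cytokine tuft cells release, Gnat3, the taste G protein, and Sucnr1, the succinate receptor, had 0 reads in all 4 samples, and Chat, which makes acetylcholine, had 1 read in III and 0 elsewhere. With 3 reads as the floor, a count of 0 allows up to 2.48 to 2.66 normalized counts per sample, which covers counting error only.

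Enterocyte transcripts varied most between samples, at 0.764%, 0.842%, 1.41% and 1.23% of reads in II, III, IV and VI, a 1.85-fold range. Sis, the brush-border sucrase-isomaltase, had 16700, 16200, 37500 and 27900 normalized counts, and Mgam, a related glucosidase, had 24400, 23200, 37200 and 20900. In the lipid pathway, Apob, the chylomicron scaffold, had 17000, 17000, 37700 and 18400, and Mttp, which loads lipid onto it, had 12600, 12800, 18300 and 21300. Both IV and VI exceeded both II and III for 23 of the 29 members, and 17.7% of all 14484 genes with a mean of at least 10 showed that order. VI was the highest sample for 20 members and II the lowest for 20, against 25.6% and 22.6% of all genes. Fabp1, a fatty acid carrier, followed with 10800, 11000, 13900 and 19600, and so did Apoa4, a chylomicron apolipoprotein, with 5210, 7070, 7170 and 15700. Lct, lactase, was low at 104, 176, 392 and 292, and Nt5e, an ectonucleotidase, lower still at 9.13 to 27.5. The median CV of the 29 members was 37.1%, against 11.5% for crypt stem genes and 9.34% for all genes with a mean of at least 100.

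Other lists added context. M cell transcripts were led by Marcksl1 (1288 ± 73.2), Tnfrsf11a (970 to 1070) and Ccl20 (184 ± 33.8), genes that other epithelial cells also use, while Gp2 and Sox8, more specific to M cells, had 0 reads in all 4 samples. Genes of fetal-like or regenerating epithelium held 0.0741% ± 0.00588 of reads, led by Krt7 (5525 ± 527), Clu (3440 ± 768) and F3 (1084 ± 223). Of genes used as regional markers, Onecut2 averaged 5130 ± 971 and Gata4, a factor of proximal small intestine, 2600 ± 108, whereas Cybrd1, the duodenal iron reductase, had 4120, 4830, 821 and 3740. Of the distal list, Slc10a2, the ileal bile acid transporter, averaged 89.8 ± 20.3, Osr2 55.1 ± 12.7 and Fabp6, the ileal bile acid carrier, 4.97 ± 1.64.

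**Figure D3:**
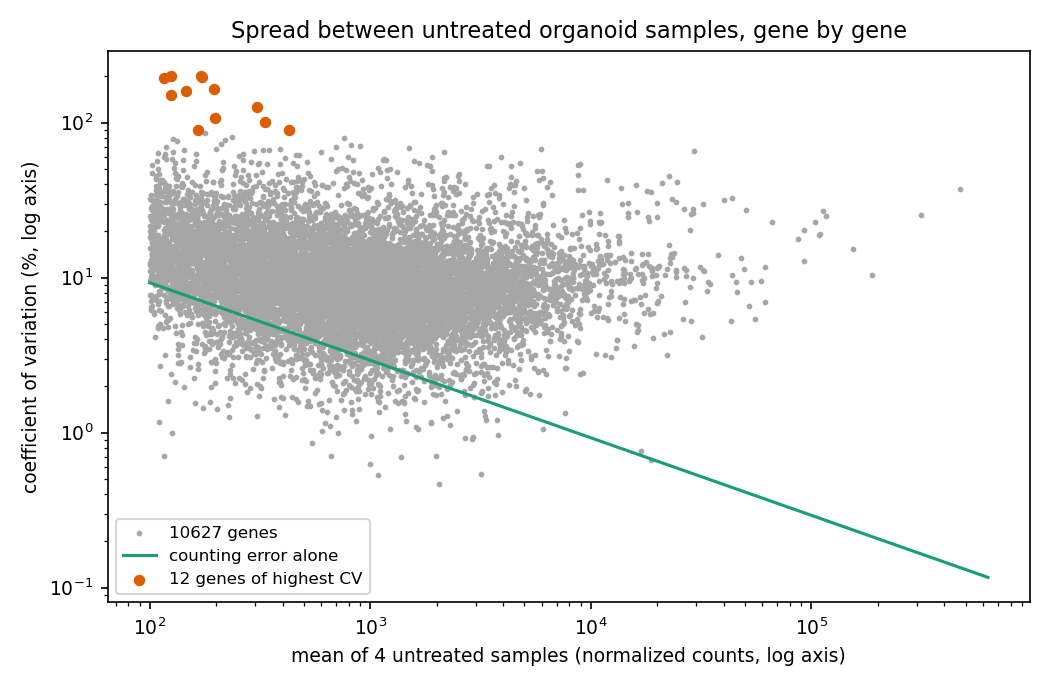
Coefficient of variation (percent, log axis) of each gene over the 4 untreated samples against its mean (normalized counts, log axis) for 10627 genes with a mean of at least 100; the line is the counting error alone and the orange points are the 12 genes of highest CV. The median gene has a CV of 9.34%, above the counting error of 3.33%, and the 12 highest reach 88.9% to 200%.

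Most genes agreed closely between the 4 samples. Over 10627 genes with a mean of at least 100 normalized counts, the median CV was 9.34%, against 3.33% from counting alone, and 54.7% of genes had a CV under 10%. By level, the median CV was 26.4% for means of 10 to 100, 10.3% for 100 to 1000, 8.21% for 1000 to 10000 and 11.2% above, where counting accounts for 17.5%, 4.62%, 2.10% and 0.723%. A CV over 50% was found for 88 genes, or 0.828%. The 5 most even genes were Spag9 (2060, 2060, 2050 and 2040), a scaffold of JNK signalling, the kinase gene Tnik, the ubiquitin ligase Arih1, the thyroid hormone receptor Thra and Hsp90b1, an endoplasmic reticulum chaperone (18800, 18700, 18800 and 19000), with CVs of 0.466% to 0.668%. With values kept to 3 digits, a CV this small is at the limit of what the table can show.

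Of the 12 genes with the highest CV, 5 encode proteins of the stomach or its mucus layer or a mucin-like protein, and all 5 were high in IV alone. Muc5ac, the gel-forming mucin of the gastric surface, had 4.44, 0, 680 and 0 normalized counts in II, III, IV and VI. Gkn2 and Gkn1, gastrokines secreted by gastric surface cells, had 6.22, 0.83, 680 and 0.826, and 9.77, 0, 453 and 1.65. Tff1, the gastric trefoil peptide, had 29.3, 16.6, 678 and 57.8, and Mucl3, a mucin-like gene, 25.8, 11.6, 403 and 58.6. Tff2, a trefoil peptide of gastric neck cells, followed at 0.888, 0.83, 27.5 and 0. The stomach list as a whole held 0.00098%, 0.00082%, 0.0142% and 0.00099% of reads. Pgc, a pepsinogen, was also highest in IV but by less, at 114, 110, 191 and 90.9. Atp4a, the parietal proton pump, had 33.7, 29.9, 22.2 and 24.0, lowest in IV, and Cblif, intrinsic factor, at most 1.77. These reads in IV stand beside the enterocyte values above, and their part in those was not tested. In the TGFb table's untreated samples Muc5ac and Gkn2 were listed at 0 TPM in all 3.

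A further pair of the 12 were high in II: Ccn1, a matricellular target of YAP, had 837, 195, 160 and 145, and Edn1, endothelin, 996, 352, 201 and 167. The other members were Gm10273 (0, 0, 0 and 502), Rpl30-ps9 (95.9, 0, 489 and 0), Gm47283 (62.2, 95.4, 184 and 880), Impdh2-ps (0, 492, 207 and 95.8) and Gm10184 (0, 358, 145 and 159). Copies such as pseudogenes share reads with their parent genes, so these 5 values are uncertain.

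Each untreated sample was then examined for genes at least 1.5-fold above or below all 3 others. A gene could pass the mean of 100 through 1 high sample alone, as Muc5ac, Gkn1, Gkn2, Tff1 and Mucl3 did in IV. Of the 10627 genes, 50 were higher and 65 lower in II, 11 higher and 10 lower in III, 61 higher and 119 lower in IV, and 33 higher and 33 lower in VI. III was thus the most central sample and IV the most distant. To see whether these differences belonged to the single culture or recurred under the same numeral, the 16 treated samples were fitted with limma with terms for ligand and numeral, and each numeral was set against the other 3. This comparison uses no untreated sample. It was chosen after the untreated values had been seen. The sets hold genes with an untreated mean of at least 100. The shares of all genes set beside them also cover lower genes, from a treated mean of 10, so the thresholds are unlike. Of the genes higher in untreated II, 42 of 50 were called higher for II in treated samples at an adjusted p under 0.05, against 7.58% of all 14745 genes tested. Of those lower in II, 44 of 65 were called lower (9.21% of all). For III the counts were 2 of 11 higher (0.726% of all) and 4 of 10 lower (0.617%). For IV they were 12 of 61 higher (0.563%) and 50 of 119 lower (0.746%), and for VI 23 of 33 higher (6.34%) and 22 of 33 lower (3.37%). No gene of any of these sets was called in the opposite direction. Numeral IV is present in 2 treated samples, and the IV counts rest on both: without the BMP2 sample IV they were 5 higher and 16 lower (0.0476% and 0.184% of all genes), and without the BMP3 sample IV 3 higher and 30 lower (0.115% and 0.591%), where the lone sample left is assumed to vary like the rest. They fell to 6 higher and 31 lower without BMP3 sample III (0.170% and 0.339%) and to 7 higher without BMP3 sample II (0.264%). The VI count fell to 14 higher without BMP2 sample VI (1.95%) or BMP2 sample IV (2.09%), and for III no more than 3 higher and 6 lower were called whichever treated sample was left out, with 0 higher and 2 lower without BMP3 sample III. The III counts were 1 higher and 2 lower without BMP3 sample IV, BMP4 sample III or BMP7 sample III, 1 higher without BMP5 sample III, and 6 lower without BMP2 sample III or BMP2 sample IV.

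**Figure D4:**
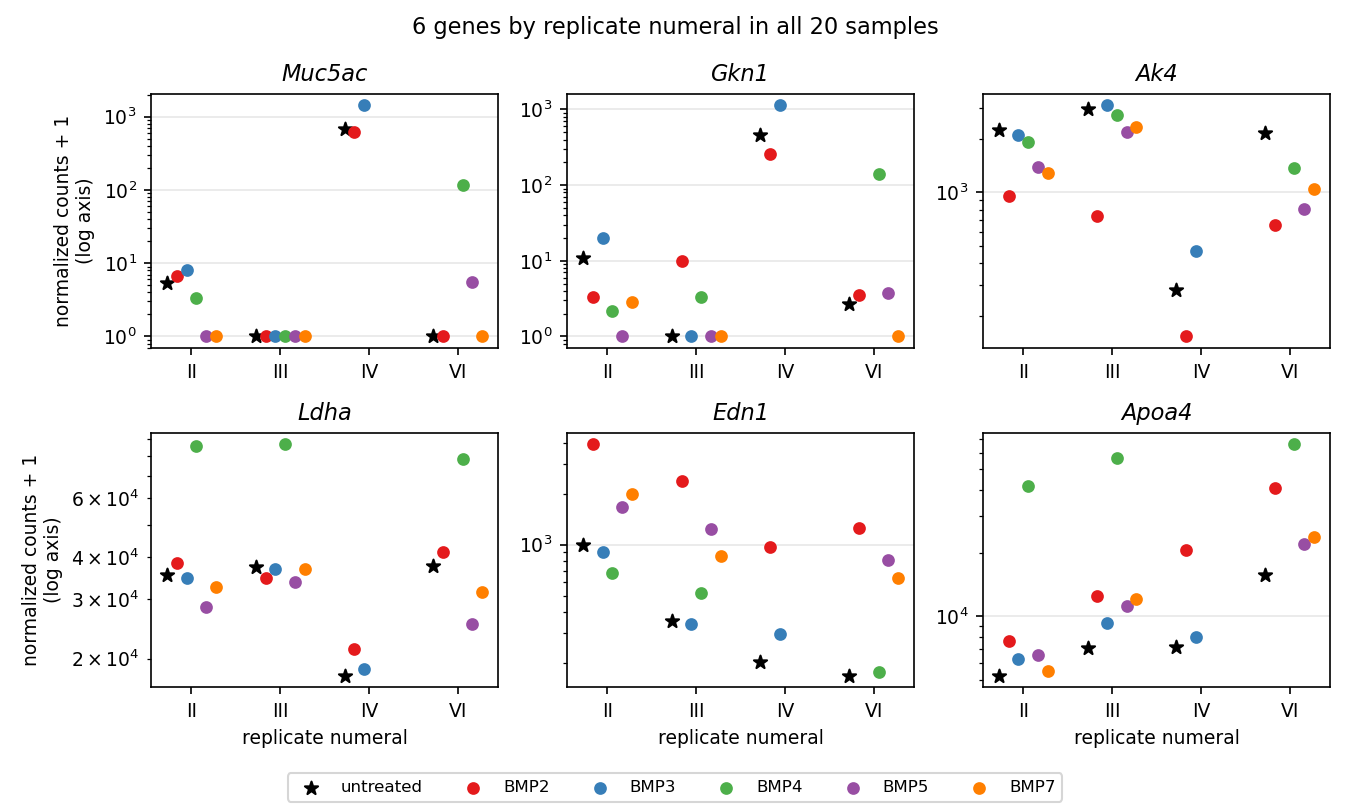
Normalized counts plus 1 (log axis, different range in each panel) of Muc5ac, Gkn1, Ak4, Ldha, Edn1 and Apoa4 in all 20 samples, grouped by replicate numeral; stars are untreated samples and dots are ligand-treated samples, coloured by ligand. Muc5ac and Gkn1 are high in the 3 samples of numeral IV and Ak4 and Ldha are low there, and among the untreated samples Edn1 is highest in II and Apoa4 in VI.

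Some of the gastric transcripts of IV recurred under numeral IV. Of 8 stomach genes tested in treated samples, 4 were called higher for IV, against 0.563% of all genes, and Pgc was not (limma adjusted p = 0.871). The stomach list as a whole was not highest there. It held 0.00735% and 0.0296% of reads in BMP2 and BMP3 samples IV, but 0.0446% in BMP5 sample VI and 0.0217% in BMP5 sample III. In these 2 BMP5 samples Muc5ac, Gkn1 and Gkn2 did not pass 4.56 normalized counts, and no other member but Cym passed 133. Most of the list share there was thus held by Cym and not by the genes high in IV. Muc5ac had 618 normalized counts in BMP2 sample IV and 1440 in BMP3 sample IV, and the other 14 treated samples lay between 0 and 116, the highest being BMP4 sample VI. Its log2 difference between IV and the other numerals in treated samples was 8.37 ± 1.26 (SE; limma adjusted p = 0.00716). Gkn1 had 260 and 1140 in those 2 samples and 0 to 140 in the other 14 (log2 difference 6.56 ± 1.36; limma adjusted p = 0.0393). Tff1 (4.30 ± 0.634; limma adjusted p = 0.00613) and Mucl3 (3.38 ± 0.624; limma adjusted p = 0.0215) passed as well, although BMP4 sample VI reached 1160 for Tff1 and 1170 for Mucl3, as high as either IV sample. Tff2 had 10.6 and 130 (limma adjusted p = 0.0836) and did not pass. The Gkn1 and Gkn2 calls hold in 9 and 12 of 19 alternatives, and their adjusted p ranged up to 0.273 and 0.317.

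Genes low in IV included many that encode glycolytic enzymes. Ak4, a mitochondrial adenylate kinase, had 2240, 2970, 281 and 2160 normalized counts, and Bnip3, a mitochondrial receptor for autophagy, 1360, 1630, 177 and 1380. In both, the 3 other samples lay close together and averaged 8.74-fold and 8.23-fold above IV. Slc16a3, the lactate exporter, had 1810, 2480, 372 and 1980, and Egln3, a prolyl hydroxylase that marks HIF for destruction, 1990, 2580, 439 and 2440. A glycolysis list and an oxygen-sensing list were then written after these values had been seen, so their counts are descriptions and support nothing by themselves. Of 17 glycolysis genes with a mean of at least 10, IV was the lowest sample for 16, and 35.95% of all 14484 genes had their lowest value there. Pgk1, phosphoglycerate kinase, had 19900, 20000, 6700 and 17400, Aldoa, a glycolytic aldolase, 21800, 23100, 8810 and 21100, and Ldha, lactate dehydrogenase, 35400, 37500, 17800 and 37800. The exception was Hk2, a hexokinase, which was lowest in II. Of 19 genes known to rise when oxygen sensing by the Egln enzymes is blocked, IV was the lowest for all 19, among them Pdk1, which restrains pyruvate oxidation (5220, 5910, 1720 and 5410), Car9, a carbonic anhydrase (3160, 3660, 1530 and 3820), and Vegfa (1170, 1700, 1050 and 1500). The median log2 difference of IV from the mean of the other 3 was -1.03 over the glycolysis genes and -1.32 over the oxygen-sensing genes, and -0.04 over all 14484.

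In treated samples 12 of the 17 glycolysis genes and 8 of the 19 oxygen-sensing genes were called lower for IV, against 0.746% of all genes, and 0 were called higher. Ak4 had 152 and 465 in BMP2 and BMP3 samples IV and 652 to 3120 in the other 14 (log2 difference -2.28 ± 0.203; limma adjusted p = 0.000264). Pgk1 (-1.20 ± 0.119; limma adjusted p = 0.000383), Aldoa (-0.99 ± 0.108; limma adjusted p = 0.000824) and Ldha (-0.87 ± 0.116; limma adjusted p = 0.00301) were lower too. Ldha had 21400 and 18700 in the 2 samples and 25300 to 86700 in the other 14, which include ligands without an IV sample. Within BMP2 the other numerals had 34700 to 41400, and within BMP3 they had 34800 and 37000. Each numeral was set against the mean of the other 3, so low values in IV also raise the differences of II, III and VI. The median log2 difference of the glycolysis genes was -0.81 for IV, 0.20 for II, 0.39 for III and 0.22 for VI. Over the oxygen-sensing genes it was -0.91, 0.38, 0.65 and 0.05 in the same order. Numeral III was called higher for 11 of the 17 glycolysis and 14 of the 19 oxygen-sensing genes, against 0.726% of all genes. II was called higher for 7 and 6 (7.58%) and lower for 1 and 1 (9.21%). VI was called higher for 2 and 1 (6.34%) and lower for 0 and 1 (3.37%). Among the untreated samples III was the highest for 10 of the 17 glycolysis genes and 15 of the 19 oxygen-sensing genes, and 13.1% of all 14484 genes had their highest value there.

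Some genes of the immediate early and stress response were highest in II. Of 19 such genes with a mean of at least 10, from a list also written after the values were seen, II was the highest for 16, in 10 of them by at least 1.5-fold, and 34.6% of all genes had their highest value there. Junb, Egr1 and Fosl1 were not highest in II, and Junb was lowest there at 464. Atf3, a stress-induced factor, had 511, 207, 79.8 and 147, Hmox1, haem oxygenase, 466, 181, 81.6 and 151, and Dusp1, a phosphatase of MAP kinases, 276, 131, 43.5 and 82.6. Thbs1, thrombospondin, had 1620, 390, 742 and 294, and Ccn2 had 437, 130, 109 and 165. Treated samples with numeral II were called higher for 9 of the 20 genes tested and lower for 2, against 7.58% and 9.21% of all genes. Edn1 (log2 difference 1.38 ± 0.158; limma adjusted p = 0.000300), Hmox1 (1.35 ± 0.169; limma adjusted p = 0.000489), Atf3 (1.04 ± 0.134; limma adjusted p = 0.000607) and Ccn2 (1.20 ± 0.219; limma adjusted p = 0.00392) were higher. Fos (-0.73 ± 0.150; limma adjusted p = 0.00733) and Egr1 (-0.78 ± 0.145; limma adjusted p = 0.00443), which are among the fastest of these genes, were lower, and Thbs1 (limma adjusted p = 0.330) did not pass.

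The enterocyte differences between samples recurred in part. For VI, 10 of the 29 enterocyte genes were called higher in treated samples and 1, Apob, lower, against 6.34% and 3.37% of all genes. For II, 0 were higher and 8 lower, against 7.58% and 9.21%. Apoa4 (VI: 1.16 ± 0.209, limma adjusted p = 0.00665; II: -1.08 ± 0.184, limma adjusted p = 0.00261), Apoa1, Slc15a1, Krt20 and Mep1b were among those called in both. For IV, 2 of 29 were higher (0.563% of all genes) and 0 lower, with Apob among the 2 (1.25 ± 0.189; limma adjusted p = 0.00716). For Sis no difference was detected (0.18 ± 0.348; limma adjusted p = 0.820).

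**Figure D5:**
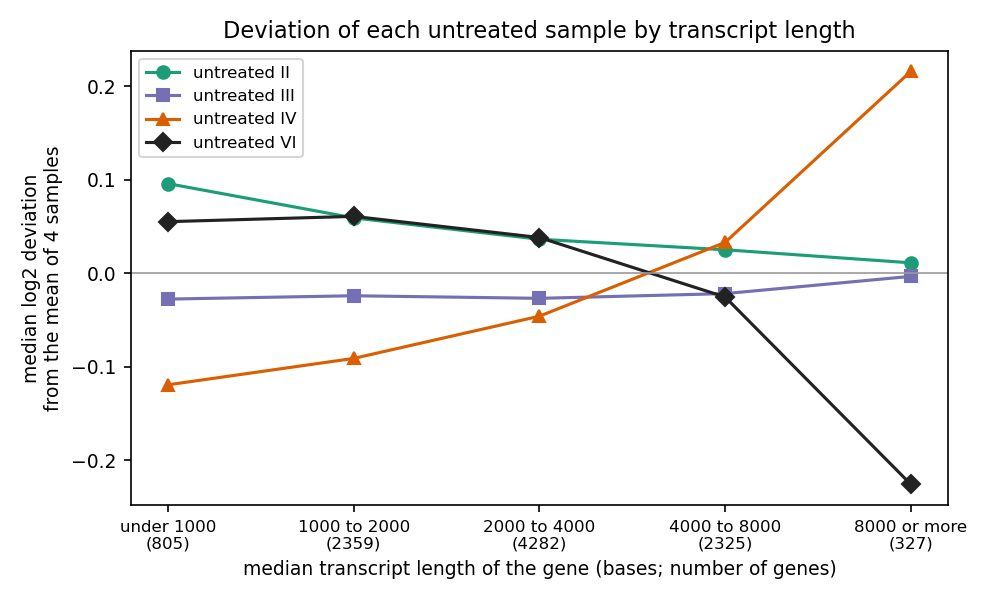
Median log2 deviation from the mean of the 4 untreated samples, for nuclear protein-coding genes with a mean of at least 100, by median transcript length (bases; number of genes in brackets); each line is 1 sample. For genes of 8000 bases or more IV lies at 0.22 and VI at -0.23, while II and III stay within 0.10 of 0 in every length class.

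Length separated IV from VI. The 327 nuclear coding genes of 8000 bases or more had a median log2 deviation of 0.22 in IV and -0.23 in VI, and the 2359 genes of 1000 to 2000 bases had -0.09 and 0.06. The gap between these classes was 0.31 in IV, -0.29 in VI, -0.05 in II and 0.02 in III. In treated samples it was 0.35 and 0.12 for the 2 IV samples and between -0.29 and -0.15 for the 4 VI samples. A positive gap was not particular to IV: it was 0.22, 0.18 and 0.10 in the III samples of BMP7, BMP4 and BMP5, and -0.04 and -0.01 in those of BMP2 and BMP3. The treated II samples lay between -0.11 and 0.08. Of the genes 1.5-fold higher in IV, 15 of 61 had transcripts of at least 8000 bases, and of those 1.5-fold lower in VI, 12 of 33, against 3.14% of all 10627 genes. Muc4, a membrane mucin, Hspg2, perlecan, and Fat1, a giant cadherin, were among those lower in VI. Mki67 at 10061 bases, Cenpf at 11130 and Fcgbp at 7927 were likewise highest in IV and lowest in VI, and Apob at 13934 was highest in IV, and the part of length in their values was not tested. The annotation used gave Muc2, a long mucin transcript in the mouse, only as fragments with a median of 711 bases, so its per-length level is unreliable.

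Untreated organoids were compared with each of 3 ligands to place the baseline, with limma over all 20 samples. All 3 comparisons use the same 4 untreated samples. The replicate numeral was not in this fit, so its spread counts as error. With BMP3, 0 of 14746 genes passed an adjusted p of 0.05 (0% of all genes) and 110 had an unadjusted p under 0.05. With the numeral as a block 0 passed and 261 had an unadjusted p under 0.05. The edgeR quasi-likelihood test called 0 and DESeq2 called 1. No member of the 7 lineage lists passed. Olfm4 averaged 92700 ± 11924 without and 89633 ± 13335 with BMP3 (SD, n = 4 and 3), and Lyz1 and Sis were likewise not called.

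With BMP2, 75.1% of the 14746 genes were called, 5420 higher (36.8%) and 5657 lower (38.4%). Crypt stem transcripts were lower for 14 of 20 members and higher for 4, proliferation transcripts lower for 22 of 22, Paneth transcripts lower for 19 of 23 and higher for 1, and enterocyte transcripts lower for 20 of 29 and higher for 5. The median log2 change was -2.35, -4.39, -1.48 and -2.02 in these lists and -0.03 over all genes. Olfm4 fell from 92700 ± 11924 to 193 ± 238 (log2 change -9.55 ± 0.495; limma adjusted p = 5.01e-12) and Sis from 24575 ± 10170 to 1600 ± 487 (-3.89 ± 0.312; limma adjusted p = 1.61e-09). Apob rose, from 22525 ± 10138 to 111775 ± 70038 (2.22 ± 0.339; limma adjusted p = 8.51e-06). Tuft transcripts were higher for 11 of 16 members and lower for 0, with Avil rising from 132 ± 24.7 to 1250 ± 395 (3.21 ± 0.236; limma adjusted p = 4.66e-10). Goblet members split into 6 higher and 13 lower of 20, and enteroendocrine members into 10 higher and 8 lower of 25. Over all genes 36.8% were higher and 38.4% lower.

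With BMP4, 65.1% of genes were called, 4964 higher (33.7%) and 4633 lower (31.4%). Crypt stem transcripts were lower for 19 of 20 and proliferation transcripts for 22 of 22, while enterocyte transcripts were higher for 27 of 29 and lower for 1. The median log2 change was -3.53, -1.83 and 2.47 in these lists, and 0.04 over all genes. Olfm4 fell to 2107 ± 990 (SD, n = 3; log2 change -5.55 ± 0.535; limma adjusted p = 5.12e-08) and Mttp rose to 78967 ± 1935 (2.32 ± 0.279; limma adjusted p = 8.12e-07). Paneth transcripts were lower for 7 of 23, near the 31.4% of all genes called lower. With the replicate numeral as a block they were lower for 12, against 5159 of all 14746 genes. Lyz1 did not pass (-0.47 ± 0.273; limma adjusted p = 0.143). Tuft members were 9 higher and 1 lower of 16, goblet members 9 higher and 6 lower of 20, and enteroendocrine members 6 higher and 8 lower of 25. These stand against 33.7% higher and 31.4% lower over all genes. After each sample was rescaled to an equal total, the BMP2 median log2 change over all genes was -0.49, and 3601 genes were called higher and 7820 lower. The BMP4 median was then -0.35, and 3080 genes were called higher and 6896 lower. Under that scaling the BMP4 count of lower Paneth members was 17, that of higher tuft members was 4, and the BMP2 count of higher crypt stem members was 1.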

How the data were processed

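RNA-seq was deposited for 28 samples in 3 tables, and the 4 untreated columns of the BMP table are described here. Per the labels' protocols, libraries came from a KAPA mRNA kit and were sequenced as 75 nt single-end reads. Per the submitters' processing notes, Trim Galore, Salmon, DESeq2 and GRCm39 were used, with role, order and version not given in the sources used here. The deposited BMP table holds a signal, namely gene counts divided by 1 constant per sample, as read from the values: 100% of 180721 values at or below 20 reads were whole multiples of 1 step within 0.1 reads, and 1 read was worth 0.826 to 0.888 in untreated samples. Values carry 3 significant digits. The deposited TGFb table holds TPM, as read from columns that sum to 1000000, so its depth is unknown. The mesenchymal table was not used here.

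Shares, CVs and per-length levels were computed in Python 3.11.15. Length is the median over GENCODE M21 basic transcripts, matched by gene ID for 99.4% of genes. That annotation is on another build, so no coordinates are given. limma 3.58.1 in R 4.3.3 was fitted to log2(value + 1) with an intensity trend over genes with a mean of at least 10, all 6 groups in 1 fit, with Benjamini-Hochberg adjustment over all genes tested, two-sided, threshold 0.05. A log2 change on this scale understates the change of low genes. edgeR 4.0.16 and DESeq2 1.42.0 were run on recovered reads as alternatives, and the fits were tested on simulated data. The numeral fit used the 16 treated samples with terms for ligand and numeral. Deviations of same-numbered samples from their group means correlated over 0.1 in every pair of untreated with BMP3 (0.281 to 0.553) and with BMP4 (0.190 to 0.225) samples. The numerals were thus taken to pair them on the data, not on the labels. The reported ligand fits left this pairing out, and it entered only as a block among the alternatives. For BMP2 the correlations were 0.195, 0.0182, 0.421 and 0.308. The precision per sample is set by 21358620 to 24784834 reads.

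Genes were named by rule: the 20 most abundant genes in reads and in TPM, the 5 most abundant members of each lineage list and the 3 most abundant of each other list, the 12 highest and 5 lowest CVs at a mean of at least 100, and lineage members at or under 3 reads. Other genes are named from lists or from genes that stood apart in 1 sample, after their values were seen. A few genes that the rule names are not reported here. The members and lists were chosen with earlier results of these data known. Alternatives were other normalizations, pseudocounts, filters, tools, a replicate block, and leaving out samples.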

Additional observations from a re-analysis of the deposited data

Results flagged for a closer look

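In 159 named genes and 17 marker lists, 25 genes and 2 lists had 1 of the 4 untreated samples so far from the rest that its gap to the nearest, as a share of the whole range, was above Dixon's critical value, which chance exceeds in about 1 in 20. Some of the genes were picked because 1 sample stood apart, and lists of related genes move together, so the number cannot be set against chance.

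IV was the high sample for Muc5ac (680 normalized counts), Gkn2 (680), Tff1 (678), Gkn1 (453), Mucl3 (403), Tff2 (27.5), Galnt2 (405), a glycosyltransferase that starts mucin-type O-glycans, and Apob (37700), and for the stomach list, at 0.0142% of reads. IV was the low sample for the glycolysis genes Ldha (17800), Pkm (16900), Gapdh (11500), Eno1 (10900), Aldoa (8810), Tpi1 (8100) and Aldoc (248), for the oxygen-sensing genes Bnip3l (1970), Pdk1 (1720) and Fam162a (939), and for the desaturase Scd2 (50900).

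II was the high sample for Ccn1 (837), Ccn2 (437), Nr4a1 (99.5) and Fosb (27.5). VI was the high sample for Gm47283 (880) and Gm10273 (502), whose reads are uncertain between near-identical copies, and for the pan-epithelial list, at 0.895% of reads.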

How the results depend on the processing

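Leaving out any 1 untreated sample kept every lineage share within its spread, but with 4 samples arithmetic fixes this outcome, so it tests nothing. Taking away each list's most abundant member left 0.464% for crypt stem, 0.310% for proliferation, 0.434% for Paneth, 0.104% for goblet, 0.040% for enteroendocrine and 0.00523% for tuft genes. Per length the shares were 0.598%, 0.221%, 1.91%, 0.272%, 0.0893% and 0.00560%. Without mitochondrially encoded genes in the total the tuft share was 0.0096% and that of the first 100 genes 18.6%, and ranked per length those 100 held 32.4%. Against BMP3, 1 gene was called by DESeq2, 6 with only the 2 groups in the fit, and 0 to 1 when a sample was left out. With the replicate block the counts were 0 for BMP3, 11858 for BMP2 and 10582 for BMP4. Of genes named with a ligand, the log2 change turned for Fcgbp (-0.053) and Chgb (-0.13) with BMP2 under quantile normalization, for Reg4 (0.015) with BMP4 by DESeq2 and for Skap2 (-0.038) with BMP4 at the same total. Leaving out 1 sample at a time with BMP4 gave -0.47 to 0.057 for Defa24, -0.38 to 0.24 for Chgb and -0.39 to 0.36 for Reg4, with the change of sign without BMP4 sample VI, and the cause was not tested.

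Rescaled to the same total, 19 of the genes higher in IV were called in treated samples, while the share of all genes called higher for IV rose from 0.563% to 1.76% and that for VI fell from 6.34% to 2.5%. Over the treated samples left out 1 at a time, the calls ranged from 0 to 3 (III, higher), 2 to 6 (III, lower), 3 to 17 (IV, higher), 16 to 61 (IV, lower) and 14 to 27 (VI, higher), and with fewer samples per numeral fewer calls can pass. Low counts limit what can be told between samples for the 9 tuft genes with a mean under 10 normalized counts.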

Other observations

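Xist, the RNA of the inactive X chromosome, had 21800, 29300, 31400 and 15000 normalized counts in II, III, IV and VI, and 6690 to 32400 over all 20 samples of the table. Ddx3y, a gene of the Y chromosome, had 0 reads in all 4 untreated samples and at most 1.82 normalized counts in the table. The labels give no sex.

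Reg3b, a secreted antimicrobial lectin, had 2760, 2660, 11000 and 7400 normalized counts, high in the same samples as the enterocyte genes. In treated samples of numeral IV its log2 difference from the other numerals was 1.65 ± 0.583 (SE; limma adjusted p = 0.170) and did not pass.

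From the lists of cells outside the epithelium, 2 genes were highest in IV although still low. Col1a1, a fibrillar collagen, had 0.888, 2.49, 19.5 and 0.826 normalized counts, and Ms4a1, the B-cell antigen CD20, had 0.888, 0, 12.4 and 0.826. The immune list held 0.000481%, 0.000443%, 0.000484% and 0.000412% of reads in II, III, IV and VI. IV was the highest sample for 0 of its 2 members with a mean of at least 10. The mesenchymal list held 0.000795%, 0.000728%, 0.00120% and 0.000876%, mostly Vim.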
